A study of Danio rerio with 12 samples.

Results

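Integrins are receptors that anchor cells to the extracellular matrix or to other cells. The genes described here are those named after the zebrafish integrin alpha and beta subunits, measured in the ventricular apex. The members were chosen by name and depth: 30 gene symbols in the count lists began with itga or itgb, and 27 of these reached 10 or more counts in at least 2 of 12 libraries. The remaining 3 symbols fell short, itga2.2 with 10 counts in 1 library and itga6l and itgb3a with no library at 10. Of the 27 members, 2 encode beta chains of leukocyte integrins (itgb2 and itgb7) and are described apart from the other 25. These 25 include itga4, whose chain serves on lymphocytes and on other cells alike. They also include itgbl1 and itgb1bp1, which match by name but encode no receptor chain. Both are counted in every share and median given for the 27 members. All 27 were among the 19014 genes of 38049 that passed the filter on low counts and were tested.

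RNA-seq was carried out on the apex of adult zebrafish ventricles (fish aged 3 to 18 months), with the apices of 6 hearts pooled in each library. WT fish were non-transgenic wild-type siblings, TG fish were wild-type carriers of Tg(hsp70l:nkx2.5-EGFP), and MT fish were nkx2.5-/- animals that carried this same transgene. The hsp70l heat-shock promoter drives nkx2.5-EGFP throughout the body, and embryos of all 3 genotypes, controls included, had received a heat shock at 37 °C at the 21-somite stage, the pulse that carries the mutants to adulthood. Apices were taken either without injury (WT0, TG0, MT0) or 7 days post amputation, dpa (WT7, TG7, MT7), and each of the 6 groups had 2 libraries. A pool hides the spread between fish, so every p-value here measures the spread between pools, 2 a group. MT and TG fish share the transgene and WT fish lack it. A difference between MT and WT can therefore not be assigned to the mutation or to the transgene. The paper reports that amputation without heat shock also switched the transgene on shortly after the cut. Its level was back to that of uninjured hearts well before 7 dpa. The part of this pulse in the TG and MT responses to injury was not tested.

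An integrin is a pair of an alpha and a beta chain, and the pairing sets the ligand. Partners of the beta 1 chain bind laminin, collagen or fibronectin, the alpha v chain and several others read the RGD tripeptide found in fibronectin and vitronectin, and the beta 2 chain is carried by white blood cells and binds counter-receptors on other cells. The short intracellular tail connects through talin, kindlin and filamin to actin, so integrins transmit force in both directions across the membrane. In heart muscle the alpha 7 and beta 1 pair is the principal laminin receptor of the mature myocyte, and fibronectin and its receptors are studied in the zebrafish heart as part of the provisional matrix laid down after injury.

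The libraries held between 14234818 and 24544150 counts, and the members' summed counts ran from 5699 to 13371. At this depth 3 counts corresponded to 0.121 to 0.224 CPM (a gene's counts scaled to a common library size, after TMM). The WT0 libraries stood apart from each other more than those of other groups: 7 of 20 members with a group mean of at least 1 CPM differed by more than 2-fold between the WT0 replicates, all higher in replicate 1, against 14.3% of all genes at that level. In MT0 it was 4 of 20 members, all higher in replicate 2, against 7.08% of genes. The transcript of nkx2.5 itself lay at 267 to 271 CPM in WT0 and TG0 and at 345 and 450 CPM in MT0. It gives no check of the mutant labels, because transcripts of the mutant allele, and any of the transgene, would be counted together under this symbol. TG0, which carries the transgene, lay at the level of WT0, which lacks it. Cardiomyocyte markers were abundant in every library, with 7 markers summing to between 21030 and 64920 CPM.

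A gene was called when its log2 fold change exceeded 0.5 in size at a false discovery rate (FDR) below 0.05, by the quasi-likelihood test of edgeR, with adjustment after Benjamini and Hochberg over all 19014 genes. Averaged over the 3 genotypes, 9 of the 27 members were called between injured and uninjured apices, 8 higher and 1 lower. That is 33.3% of members beside 24.9% of all genes. Over the 27 members this log2 fold change had a median of 0.40, beside 0.00025 for all genes tested. The 8 higher members were itgbl1, itgb2, itgav, itga6a, itga6b, itga2b, itgb1a and itga11a, and the lower member was itga3b. In 2 members, itgbl1 and itgb2, all 6 injured libraries lay above all 6 uninjured ones, a pattern seen in 5.02% of all genes, and in 0 members did the injured libraries all lie below, beside 2.71% of genes. Of the 27 members, 19 were called in at least 1 of 13 comparisons and 8 in none (itga1, itga3a, itga4, itga8, itgb1b.1, itgb3b, itgb6 and itgb8).

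**Figure D1:**
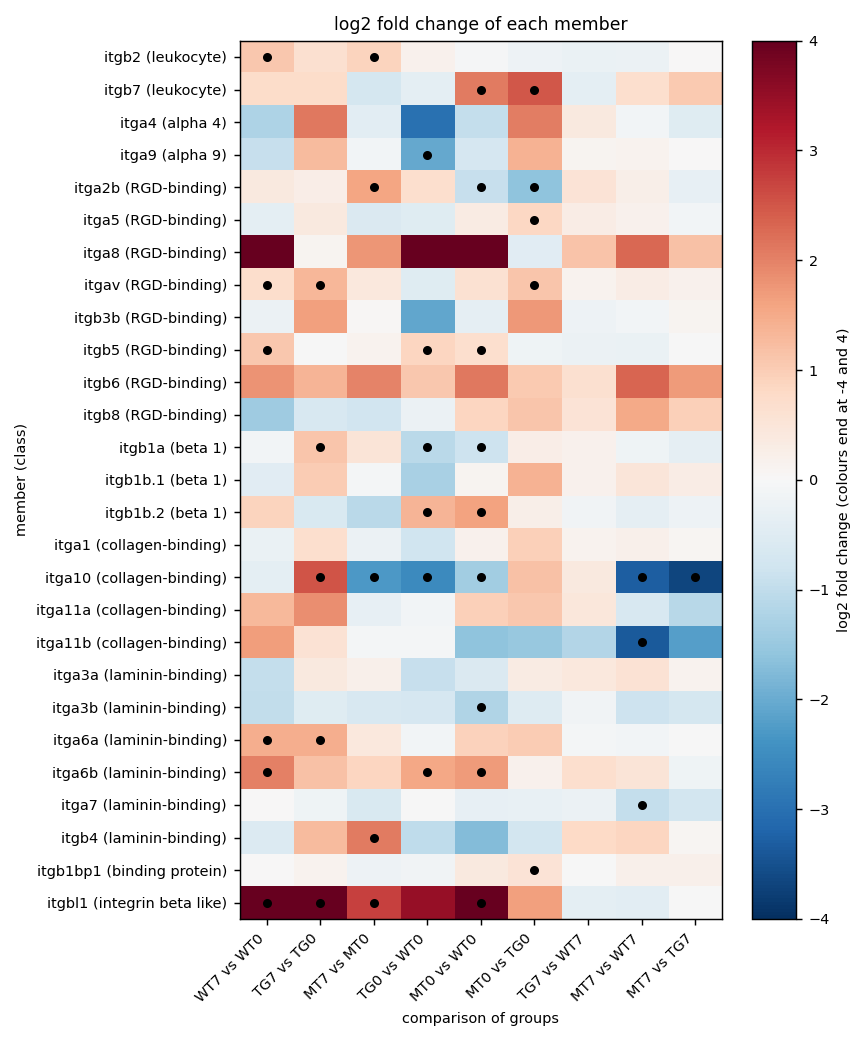
Log2 fold change (colour) of the 27 members (vertical axis, with class) in 9 comparisons of groups (horizontal axis), with a black dot where a gene was called. The row of itgbl1 carries dots in all 3 injury columns and the row of itga10 carries 6 dots; the dark cells of itga8 rest on 0 counts in both WT0 libraries and no cell of that row was called.

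The leukocyte subunits differed from each other. itgb2 encodes the beta 2 chain shared by the integrins of neutrophils, macrophages and lymphocytes. It measured 28.0 and 32.7 CPM in WT0, 31.5 and 36.1 CPM in TG0, 19.96 and 38.4 CPM in MT0, 62.2 and 65.7 CPM in WT7, 52.7 and 53.4 CPM in TG7, and 59.7 and 48.2 CPM in MT7. Every injured library exceeded every uninjured one, and the injured libraries of the 3 genotypes spanned similar values. The log2 fold change over the genotypes was 0.87 ± 0.14 (SE, FDR = 0.00142). By genotype it was 1.08 ± 0.25 (FDR = 0.0129) in WT, 0.65 ± 0.25 (FDR = 0.121, not called) in TG and 0.88 ± 0.25 (FDR = 0.044) in MT. The call in MT was lost when any of 10 of the 12 libraries was left out in turn, and the call in WT when WT0 replicate 1 or either WT7 library was.

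Beta 7 forms, in mammals, the receptors by which lymphocytes home to and stay in mucosal tissue. itgb7 stood at 2.58 and 2.31 CPM in WT0, 2.56 and 1.21 CPM in TG0, 10.97 and 9.87 CPM in MT0, 4.27 and 3.80 CPM in WT7, 3.02 and 3.19 CPM in TG7, and 6.13 and 6.68 CPM in MT7. The MT0 libraries were the highest of all 12 and the MT7 libraries came next, above every WT and TG library. itgb7 was higher in MT0 than in WT0 by 2.09 ± 0.31 on the log2 scale (FDR = 0.00148) and higher than in TG0 by 2.48 ± 0.32 (FDR = 0.000677), and both calls held with any library left out and under every alternative run. After injury the difference was smaller and was not called, at 0.67 ± 0.29 against WT7 (FDR = 0.189) and 1.04 ± 0.30 against TG7 (FDR = 0.106). Over the genotypes itgb7 did not pass for injury (0.25 ± 0.18, FDR = 0.291).

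Further leukocyte alpha chains were listed under other names and were therefore not members, but RefSeq gene IDs placed itgam.1 and itgae.2 among the genes counted. The mammalian alpha M chain pairs with beta 2 on myeloid cells, and alpha E pairs with beta 7. itgam.1 measured 7.39 and 4.85 CPM in WT0, 10.4 and 13.0 CPM in TG0, 21.5 and 30.7 CPM in MT0, 21.9 and 18.3 CPM in WT7, 23.9 and 24.6 CPM in TG7, and 17.6 and 33.5 CPM in MT7. It rose over the genotypes by 0.91 ± 0.18 (FDR = 0.00345) and in WT by 1.71 ± 0.32 (FDR = 0.00554). Its value for injury was 1.05 ± 0.31 in TG (FDR = 0.0583, not called) and -0.03 ± 0.30 in MT (FDR = 0.955, not called). In MT0 it was higher than in WT0 by 2.09 ± 0.33 (FDR = 0.00181) and than in TG0 by 1.16 ± 0.31 (FDR = 0.0232). The difference between the MT and WT responses was -1.74 ± 0.44 and did not pass (FDR = 0.0756). Nor did that between the MT and TG responses (-1.08 ± 0.43, FDR = 0.259). itgae.2 measured 8.0 and 6.19 CPM in WT0, 3.11 and 2.21 CPM in TG0, 4.18 and 5.61 CPM in MT0, 9.47 and 8.88 CPM in WT7, 8.14 and 7.03 CPM in TG7, and 13.2 and 11.4 CPM in MT7. Its MT7 libraries were the highest, but MT7 was not called against WT7 (0.42 ± 0.23, FDR = 0.28) or TG7 (0.70 ± 0.23, FDR = 0.151). itgae.2 rose over the genotypes by 1.07 ± 0.14 (FDR = 0.000385). Among uninjured groups TG0 was lower than WT0 (-1.42 ± 0.25, FDR = 0.00474) and MT0 was higher than TG0 (0.89 ± 0.25, FDR = 0.0293). Neither itgam.1 nor itgae.2 was followed in the fits that left out a library.

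Markers of leukocytes were also higher with injury. Of 12 markers of the lineage (ptprc, lcp1, mpeg1.1, mpx and others), 9 were called higher over the genotypes and 0 lower, with a median log2 fold change of 1.16. Of all genes, 15.7% were called higher and 9.18% lower. By genotype, 3 of the 12 markers were called higher in WT, 7 in TG, where itgb2 was not called, and 4 in MT. The shares of all genes called higher were 13.2%, 6.69% and 5.56%. The summed level of the markers lay between 135 and 349 CPM in the uninjured groups (162 to 349 in WT0, 135 to 140 in TG0, 171 to 335 in MT0) and between 338 and 526 CPM in the injured ones (340 to 457 in WT7, 338 to 481 in TG7, 492 to 526 in MT7). WT0 replicate 2, at 349 CPM, lay above WT7 replicate 1 at 340 CPM. This order rested on marco, at 156 CPM in WT0 replicate 2 and 77.6 CPM in WT7 replicate 1. Every other marker was lower in WT0 replicate 2 than in WT7 replicate 1. In itgb2 the WT0 replicates were close, at 28.0 and 32.7 CPM. Expressed per 100 CPM of these markers, itgb2 stood at 9.37 to 25.7 CPM in the uninjured libraries and at 9.80 to 18.3 CPM in the injured ones. The value of 9.37 CPM was that of WT0 replicate 2, whose marker sum holds the 156 CPM of marco. The part of leukocyte number in the itgb2 result was not tested, and in bulk tissue fewer cells of a type and less RNA per cell cannot be told apart. Between MT0 and WT0, where itgb7 was higher, 0 of the 12 markers were called (25.3% of all genes), and between MT0 and TG0 it was 3 higher and 0 lower (20.8% of all genes). None of the 12 is particular to lymphocytes, so they give no reading of lymphocyte number beside itgb7.

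**Figure D2:**
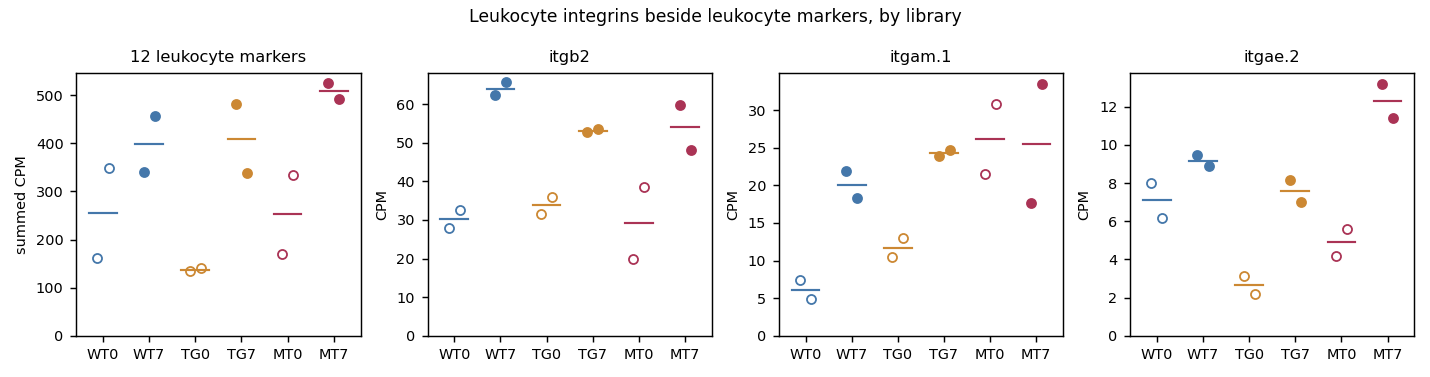
Summed CPM of 12 leukocyte markers and CPM of itgb2, itgam.1 and itgae.2 (vertical axes) in the 6 groups (horizontal axis), where points are libraries (open uninjured, filled injured) and bars are group means. The itgb2 points of the injured groups lie between 48.2 and 65.7 CPM and the uninjured ones between 19.96 and 38.4 CPM, whereas itgam.1 in MT0, at 21.5 and 30.7 CPM, already overlaps the injured groups.

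Among the members that recognise RGD-containing ligands, 2 of 8 were called with injury over the genotypes, itgav and itga2b, each higher. That is 25% of the class beside 24.9% of all genes called. Alpha v pairs with several beta chains and can release active TGF-beta from its latent complex. itgav measured 37.7 and 33.2 CPM in WT0, 24.3 and 26.2 CPM in TG0, 38.6 and 69.3 CPM in MT0, 51.9 and 64.2 CPM in WT7, 67.7 and 59.8 CPM in TG7, and 77.5 and 66.6 CPM in MT7. Apart from MT0 replicate 2, at 69.3 CPM above 5 of the 6 injured libraries, every uninjured library lay below every injured one. The change over the genotypes was 0.82 ± 0.14 (FDR = 0.00144). It was 0.71 ± 0.24 in WT (FDR = 0.0493) and 1.34 ± 0.24 in TG (FDR = 0.00868), and in MT 0.42 ± 0.23 (FDR = 0.259, not called). The difference between the MT and TG responses was -0.92 ± 0.33 (FDR = 0.21). The WT call was lost in 10 of 12 fits that left out a library and under RLE scaling (FDR = 0.0577), and the TG call without either TG0 library or without TG7 replicate 1.

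The alpha IIb chain, encoded by itga2b, is the fibrinogen receptor subunit of thrombocytes, the nucleated platelets of fish. Its levels were 13.7 and 12.8 CPM in WT0, 20.7 and 21.8 CPM in TG0, 7.46 and 6.51 CPM in MT0, 21.5 and 13.3 CPM in WT7, 26.7 and 24.7 CPM in TG7, and 27.2 and 14.1 CPM in MT7. MT0 held the lowest values of all groups, whereas the TG0 libraries lay above WT7 replicate 2 and MT7 replicate 2. Averaged over the genotypes itga2b rose by 0.74 ± 0.17 (FDR = 0.00734), and in MT by 1.56 ± 0.30 (FDR = 0.0111). It was not called in WT (0.39 ± 0.29, FDR = 0.351) or TG (0.28 ± 0.29, FDR = 0.582). Without injury it was lower in MT0 than in TG0, by a log2 difference of -1.61 ± 0.30 (FDR = 0.005), and than in WT0, by -0.93 ± 0.31 (FDR = 0.0478); the latter was lost in 9 of 12 fits that left out a library, the former without MT0 replicate 2, and the rise in MT without either MT0 library or without MT7 replicate 1. Its MT response was not shown to differ from those of WT (1.17 ± 0.42, FDR = 0.172) or TG (1.29 ± 0.41, FDR = 0.164). Of 6 other thrombocyte markers measured, 5 were called higher with injury and 0 lower, beside 15.7% and 9.18% of all genes. In MT0, 2 of the markers were called lower than in TG0 and 0 higher (20.8% of all genes called). Against WT0, where itga2b was also lower, 0 of the markers were called (25.3% of all genes). Their sums were 41.2 to 42.0 CPM in WT0, 57.2 to 68.1 CPM in TG0 and 43.9 to 48.8 CPM in MT0, and their part in the itga2b result was not tested.

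itgb5, a partner chain of alpha v, separated WT0 from all other groups. It measured 8.27 and 13.1 CPM in WT0, 17.7 and 20.97 CPM in TG0, 16.7 and 17.5 CPM in MT0, 22.9 and 22.2 CPM in WT7, 18.7 and 19.5 CPM in TG7, and 18.2 and 19.3 CPM in MT7. Both WT0 libraries were the lowest of the 12 and both WT7 libraries the highest. itgb5 rose in WT by 1.08 ± 0.19 (FDR = 0.00435), and was higher in TG0 (0.86 ± 0.19, FDR = 0.0129) and MT0 (0.68 ± 0.19, FDR = 0.0278) than in WT0. In TG and MT the change with injury was -0.02 ± 0.19 (FDR = 0.961) and 0.13 ± 0.19 (FDR = 0.684). The response in TG differed from that in WT by -1.10 ± 0.27, which did not pass (FDR = 0.0546), and the MT response by -0.94 ± 0.27 (FDR = 0.101). The rise over the genotypes, 0.40 (FDR = 0.0174), was under the fold threshold. Fits of the compared libraries only called neither the rise in WT (FDR = 0.054) nor the TG0 (FDR = 0.108) or MT0 (FDR = 0.189) difference from WT0. The TG0 call was lost without WT0 replicate 1 or TG0 replicate 2 and the MT0 call in 5 of 12 fits that left out a library.

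itga5, the fibronectin receptor alpha chain and the member with the most counts, ran from 102 to 206 CPM. It was chosen for a mention here after its values were seen. It was higher in MT0 (206 and 160 CPM) than in TG0 (102 and 102 CPM) by 0.84 ± 0.21 (FDR = 0.0189), a call lost without either TG0 library or without MT0 replicate 1, and did not pass for injury (-0.19 ± 0.12, FDR = 0.236). That injury value is the average over the genotypes, which covers opposite signs. The itga5 change was -0.40 ± 0.21 in WT (FDR = 0.192), 0.38 ± 0.21 in TG (FDR = 0.271) and -0.57 ± 0.21 in MT (FDR = 0.102), not called in any. Its MT and TG responses differed by -0.96 ± 0.30, which did not pass (FDR = 0.151). The others of this class, itga8, itgb3b, itgb6 and itgb8, held between 61 and 433 counts over all 12 libraries and were never called. itga8 had no count in either WT0 library and between 1 and 16 counts in each injured one, and itgb6 reached 22 and 13 counts in MT7 against 0 to 5 elsewhere.

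Of the laminin-binding chains, 3 of 6 members were called over the genotypes, itga6a and itga6b higher and itga3b lower, beside 24.9% of all genes. Zebrafish carry a pair of genes for the alpha 6 chain, which joins beta 1 or beta 4 to hold cells to basement membranes. itga6a measured 4.88 and 2.61 CPM in WT0, 3.90 and 3.12 CPM in TG0, 4.64 and 9.51 CPM in MT0, 9.95 and 10.6 CPM in WT7, 9.62 and 9.77 CPM in TG7, and 10.02 and 9.05 CPM in MT7. The injured libraries occupied a narrow range, from 9.05 to 10.6 CPM, and of the uninjured ones just MT0 replicate 2 reached it. The rise was 1.11 ± 0.20 over the genotypes (FDR = 0.00224), 1.45 ± 0.36 in WT (FDR = 0.0162) and 1.47 ± 0.35 in TG (FDR = 0.03). The WT call was lost without WT0 replicate 2 or either WT7 library, and the TG call in 6 of 12 fits that left out a library. In MT it was 0.42 ± 0.34 (FDR = 0.436, not called). The MT response was not shown to differ from that of WT (-1.03 ± 0.49, FDR = 0.281) or TG (-1.05 ± 0.48, FDR = 0.344).

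Its paralog itga6b measured 1.42 and 2.31 CPM in WT0, 4.76 and 6.09 CPM in TG0, 3.17 and 8.89 CPM in MT0, 8.79 and 6.41 CPM in WT7, 12.7 and 11.7 CPM in TG7, and 10.9 and 10.9 CPM in MT7. WT0 held the lowest pair, and as in itga6a the MT0 replicates disagreed, replicate 2 lying above both WT7 libraries. It rose over the genotypes by 1.35 ± 0.24 (FDR = 0.00213) and in WT by 2.03 ± 0.45 (FDR = 0.0104), and was not called in TG (1.17 ± 0.40, FDR = 0.0928) or MT (0.85 ± 0.40, FDR = 0.182). Among uninjured hearts it was higher in MT0 (1.70 ± 0.45, FDR = 0.0199) and in TG0 (1.54 ± 0.45, FDR = 0.0333) than in WT0. The WT call was lost without WT0 replicate 1 or WT7 replicate 1. The MT0 call was lost without WT0 replicate 1 or without MT0 replicate 2, where the log2 difference fell to 0.78, and the TG0 call was lost in 7 of 12 such fits.

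Another laminin receptor chain, alpha 3, is typical of epithelia. Its gene itga3b measured 84.5 and 36.4 CPM in WT0, 37.4 and 38.8 CPM in TG0, 27.4 and 25.5 CPM in MT0, 31.4 and 29.2 CPM in WT7, 29.3 and 25.8 CPM in TG7, and 11.9 and 22.2 CPM in MT7. WT0 replicate 1 stood above every other library, and both MT7 libraries lay below all others. Over the genotypes itga3b fell by 0.70 on the log2 scale (SE 0.20, FDR = 0.0219), and in MT0 it was -1.19 ± 0.35 against WT0 (FDR = 0.0319); each of these calls was lost in 9 of 12 fits that left out a library, and without WT0 replicate 1 the latter came to -0.45.

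itga7, the myocyte laminin receptor chain, and itgb4, the hemidesmosome chain, are described because they were called, after their values were seen. itga7 measured 97.8 and 66.9 CPM in WT0, 75.5 and 86.1 CPM in TG0, 74.1 and 57.4 CPM in MT0, 74.6 and 91.4 CPM in WT7, 77.5 and 65.1 CPM in TG7, and 41.6 and 43.7 CPM in MT7. The MT7 libraries were the lowest, and MT7 was lower than WT7 by a log2 difference of -0.96 ± 0.20 (FDR = 0.015), a call lost when any of the 4 libraries compared was left out; against TG7 the difference was -0.74 ± 0.20 (FDR = 0.0881, not called). The 7 cardiomyocyte markers also summed lowest in MT7, at 21030 to 28580 CPM against 39070 to 41710 CPM in WT7 and 39040 to 43480 CPM in TG7. Gene by gene, 3 of the 7 were called lower and 1 higher in MT7 than in WT7, beside 5.62% and 4.60% of all genes. Against TG7, 0 were called in either direction (2.78% of all genes called). The part of these markers in the itga7 result was not tested. itgb4 was called in MT, and in no interaction, at 2.08 ± 0.60 (FDR = 0.0491), with 4.76 and 1.53 CPM in MT7 and 0.565 and 0.898 CPM in MT0; the call was lost in 9 of 12 fits that left out a library. itga3a held 94 counts in all and was never called.

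**Figure D3:**
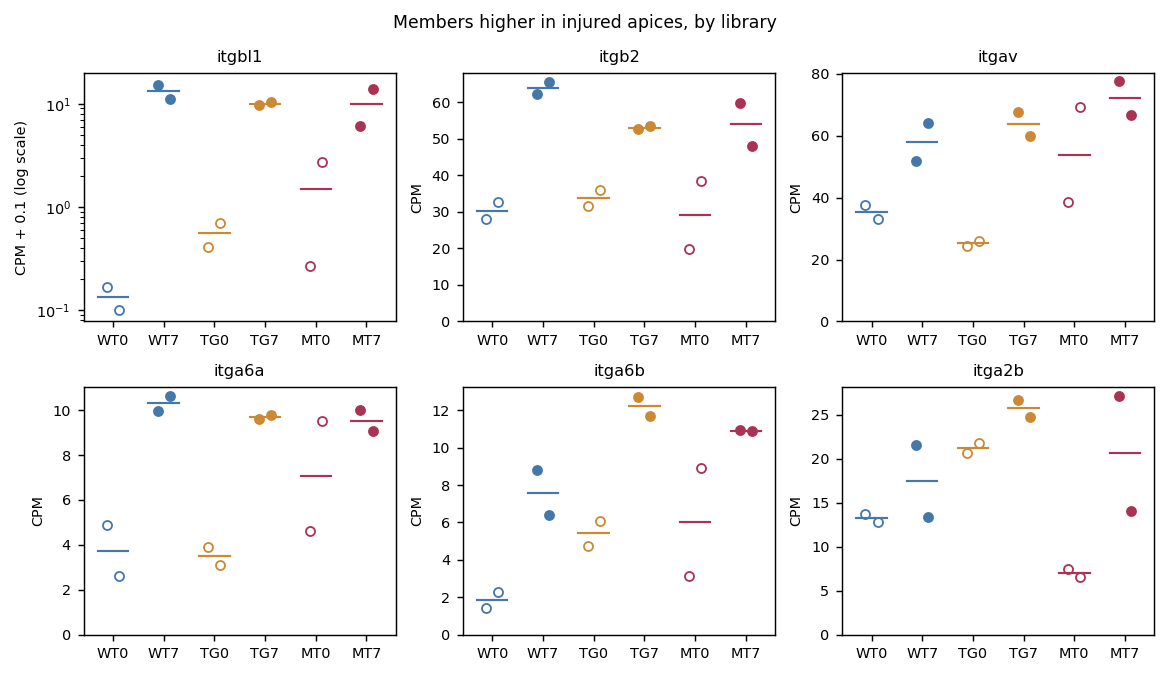
CPM (vertical axes, for itgbl1 CPM plus 0.1 on a log scale) of 6 members that were higher in injured apices, in the 6 groups (horizontal axis), where points are libraries (open uninjured, filled injured) and bars are group means. In itgav, itga6a and itga6b the higher MT0 point is replicate 2, at 69.3, 9.51 and 8.89 CPM, and reaches the injured range.

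The largest log2 fold changes with injury among the called members belonged to itgbl1, which encodes a secreted protein built of beta-chain-like EGF repeats and which forms no receptor. Its counts were 1 and 0 in WT0, 5 and 12 in TG0 and 3 and 59 in MT0, and then 314 and 249 in WT7, 168 and 251 in TG7 and 143 and 341 in MT7. In CPM this was 0.0678 and 0 in WT0, 0.305 and 0.603 in TG0, 0.170 and 2.65 in MT0, 15.2 and 11 in WT7, 9.57 and 10.3 in TG7, and 5.92 and 13.7 in MT7. Every injured library exceeded every uninjured one, and the MT0 replicates differed widely. Over the genotypes the log2 fold change was 5.15 ± 0.58 (FDR = 0.000201), and it was called in TG (4.40 ± 0.88, FDR = 0.0147), MT (2.74 ± 0.76, FDR = 0.0413) and WT (FDR = 0.00229). Because WT0 held 1 count in all, fitted values against it depend on the prior count. The ratio of summed levels, WT7 over WT0, was 367 with an exact 95% counting interval of 65.6 to 14510. The WT call held with any library left out, the TG call was lost when any of the 4 TG libraries was left out, and the MT call was lost in 10 of 12 such fits.

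Between uninjured groups, itgbl1 in MT0 was 43.7 times its level in WT0 (95% counting interval 7.56 to 1753, counting error only) and was called (FDR = 0.0357), but without MT0 replicate 2 the call was lost and the fitted log2 difference was 2.09. The corresponding TG0 ratio was 13.2 (2.07 to 551) and was not called (FDR = 0.204). Injured groups did not differ in it by the test: MT7 against WT7 gave -0.42 ± 0.67 (FDR = 0.765) and MT7 against TG7 gave -0.01 ± 0.67 (FDR = 0.995). The difference between the MT and WT responses was -5.55 ± 1.75 and did not pass in edgeR (FDR = 0.131), while DESeq2 called it (FDR = 0.0314).

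Of the collagen receptor chains, 1 of 4, itga11a, was called with injury over the genotypes, beside 24.9% of all genes. itga10 was not, but was called in 6 comparisons of single groups. The alpha 10 chain is best known from mammalian cartilage, where it binds type II collagen. itga10 measured 15.7 and 19.6 CPM in WT0, 2.74 and 3.27 CPM in TG0, 7.97 and 5.56 CPM in MT0, 16.5 and 10.2 CPM in WT7, 19.5 and 15.2 CPM in TG7, and 0.538 and 2.17 CPM in MT7. The MT7 libraries, at 13 and 54 counts, were the lowest of the 12, and the WT0, WT7 and TG7 libraries all lay above the other 6. With injury itga10 rose in TG by 2.52 ± 0.46 (FDR = 0.00975), fell by 2.31 in MT (SE 0.49, FDR = 0.0159), and in WT its value was -0.40 ± 0.42 (FDR = 0.515, not called). Averaged over the genotypes it came to -0.06 ± 0.26. The fall in MT was not called without MT0 replicate 1 or MT7 replicate 1, nor in a fit of the compared libraries only (FDR = 0.101), and leaving out a library gave log2 values from -3.64 to -1.64. The rise in TG was not called without either TG0 library or without TG7 replicate 1.

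The genotypes differed at both states. MT7 was lower in itga10 than WT7 by a log2 difference of -3.29 ± 0.49 (FDR = 0.00324) and than TG7 by -3.67 ± 0.49 (FDR = 0.00468), and both calls held with any library left out. Before injury it was TG0 that was lowest, at -2.55 ± 0.47 against WT0 (FDR = 0.00556, lost without TG0 replicate 1), while MT0 stood at -1.38 ± 0.44 against WT0 (FDR = 0.0403, lost in 10 of 12 fits that left out a library).

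The alpha 11 chains bind fibrillar collagen and are typical of fibroblasts. itga11a, like itga11b, was named after its values were seen. Averaged over the genotypes itga11a rose by 0.95 ± 0.32 (FDR = 0.0385), a call lost in 10 of 12 fits that left out a library. It ran from 0.475 to 1.84 CPM in uninjured and from 0.745 to 3.30 CPM in injured libraries. By genotype it was not called, at 1.30 ± 0.56 in WT (FDR = 0.114), 1.87 ± 0.55 in TG (FDR = 0.0601) and -0.32 ± 0.53 in MT (FDR = 0.731). itga11b measured 2.86 and 4.33 CPM in WT7, 1.54 and 1.68 CPM in TG7 and 0.290 and 0.402 CPM in MT7, the MT7 values resting on 7 and 10 counts. MT7 was lower than WT7 by a log2 difference of -3.35 ± 0.68 (FDR = 0.0136), a call lost when any of the 4 libraries compared was left out. Against TG7 it was -2.20 ± 0.68 (FDR = 0.129). Markers of epicardium and fibroblasts summed to 2585 to 3023 CPM in WT7, 3355 to 3478 CPM in TG7 and 2797 to 2906 CPM in MT7. Much of each sum was col1a2, at 1236 to 1355 CPM, and postnb, at 949 to 1712 CPM. Gene by gene, 3 of the 8 markers were called higher and 0 lower in MT7 than in WT7, beside 4.60% and 5.62% of all genes. Against TG7, 0 were called in either direction (2.78% of all genes called). Their part in the itga11b result was not tested. itga1, with 24.5 to 63.6 CPM, was never called.

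**Figure D4:**
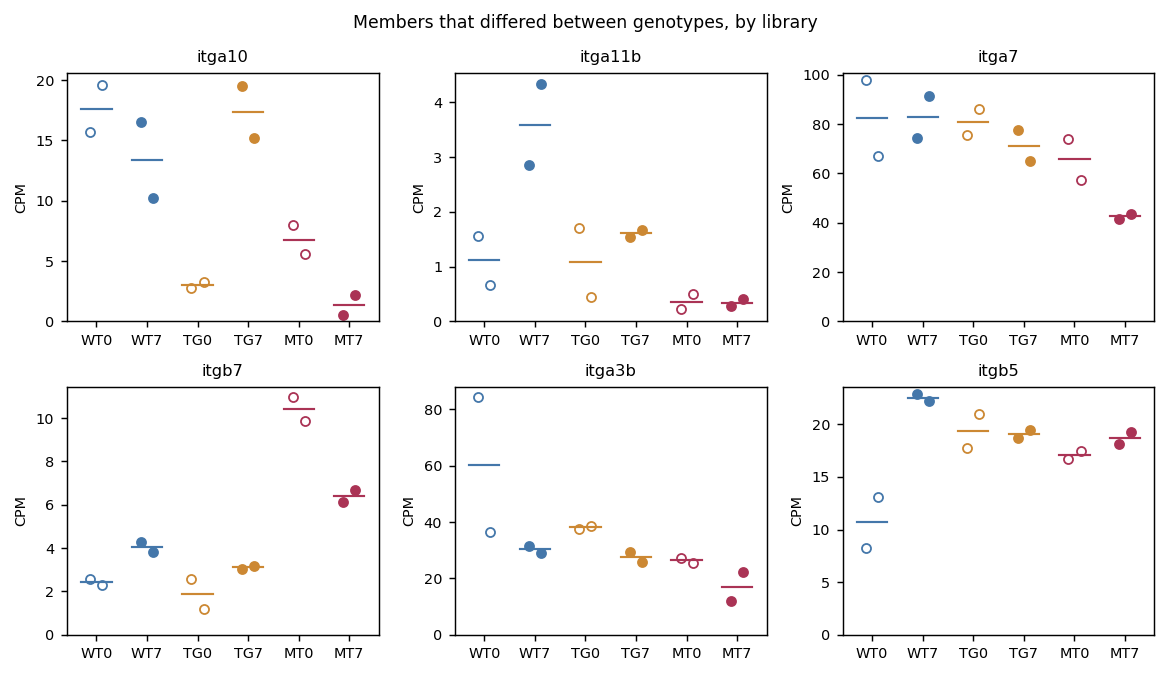
CPM (vertical axes) of 6 members called between genotypes, in the 6 groups (horizontal axis), where points are libraries (open uninjured, filled injured) and bars are group means. itga10 is low in TG0 and lowest in MT7, itgb7 is highest in MT0 at 10.97 and 9.87 CPM, and 1 WT0 point of itga3b, at 84.5 CPM, stands above all others.

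The beta 1 chain is the common partner of the laminin, collagen and fibronectin receptor chains. Its gene itgb1a measured 53.8 and 35.0 CPM in WT0, 20.1 and 22.2 CPM in TG0, 17.3 and 33.1 CPM in MT0, 41.0 and 40.6 CPM in WT7, 46.7 and 45.5 CPM in TG7, and 34.9 and 37.7 CPM in MT7. WT0 replicate 1 was the highest library and the TG0 and MT0 libraries lay below all injured ones. The rise over the genotypes, 0.51 ± 0.15 (FDR = 0.0274), sat at the fold threshold and was not called with DESeq2 or RLE scaling, where it was 0.50. In TG itgb1a rose by 1.12 ± 0.27 (FDR = 0.0309). It was not called in WT (-0.12 ± 0.27, FDR = 0.763) or MT (0.52 ± 0.27, FDR = 0.222). Among uninjured groups it was lower in TG0 (-1.07 ± 0.27, FDR = 0.0204) and MT0 (-0.81 ± 0.27, FDR = 0.0487) than in WT0. The call in MT0 was lost in 10 of 12 fits that left out a library, where the log2 difference ran from -1.35 to -0.41, that over the genotypes in 9, that in TG in 6, and that in TG0 in 3 (without WT0 replicate 1 or either TG0 library).

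itgb1b.2, from 0.671 to 2.74 CPM, was higher in MT0 (1.60 ± 0.40, FDR = 0.016) and TG0 (1.36 ± 0.40, FDR = 0.0346) than in WT0. It lies between itgb1b and itgb1b.1 in the RefSeq gene order, and whether reads were shared or dropped between these copies was not tested, so the counts of itgb1b.1 and itgb1b.2 are uncertain. The call in MT0 was lost without WT0 replicate 2 or MT0 replicate 2, and that in TG0 in 8 of 12 fits that left out a library. itgb1b.1 was never called. itgb1bp1, an intracellular protein that binds the beta 1 tail and is no receptor chain, ran from 17.2 to 27.6 CPM and was 0.55 ± 0.16 higher in MT0 than in TG0 (FDR = 0.0317, lost in 7 of 12 such fits). itga9, the tenascin receptor chain, was lower in TG0 than in WT0 (-2.05 ± 0.66, FDR = 0.0461), where WT0 replicates read 4.07 and 1.27 CPM. That call was lost in 9 of 12 fits that left out a library, and the log2 difference moved as far as -0.97. itga4, a receptor chain for fibronectin and VCAM1, held 127 counts in all and was never called. The genes of this paragraph were described after their values were seen.

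Counted by genotype, injury called 6 members higher and 0 lower in WT (24.2% of all genes called), 5 higher and 0 lower in TG (9.37% of all genes) and 4 higher and 1 lower in MT (12% of all genes). As shares of the 27 members these were 22.2%, 18.5% and 18.5%. Over the members the log2 fold changes had medians of 0.01 in WT, 0.73 in TG and -0.07 in MT, with that of all genes at 0.0046 or less. itgbl1 was called in each of the 3, itga6a and itgav in WT and TG, itgb2 in WT and MT, and itga10 in TG and MT with opposite signs.

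Uninjured genotypes differed in more members than injured ones, as they did over all genes. MT0 against WT0 called 5 members higher and 4 lower (33.3% of members and 25.3% of all genes), MT0 against TG0 4 higher and 1 lower (20.8% of all genes), and TG0 against WT0 3 higher and 3 lower (22.5% of all genes). Only itgb7, higher, and itga2b, lower, were called with the same sign in MT0 against both WT0 and TG0; these comparisons share the MT0 libraries. These counts rested on single libraries: without WT0 replicate 1 the MT0 against WT0 count was 3 and the TG0 against WT0 count 1, without WT0 replicate 2 the latter was 11, and without MT0 replicate 2 the MT0 against WT0 count was 2. At 7 dpa, MT7 against WT7 called 0 members higher and 3 lower, itga10, itga11b and itga7 (10.2% of all genes), and MT7 against TG7 called itga10 alone, lower (2.78% of all genes). TG7 against WT7 called 0 members (1.14% of all genes), with 0 at an unadjusted p under 0.05 in edgeR and 0 by DESeq2.

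The responses to injury were compared between genotypes directly, by the interaction terms. Between MT and TG 1 member was called, itga10, at -4.83 ± 0.67 (FDR = 0.0155, beside 1.41% of all genes), and between TG and WT the same gene was called at 2.92 ± 0.62 (FDR = 0.0383, beside 3.64% of all genes). The first call was lost when any of the 4 TG libraries was left out, and the second in 9 of 12 such fits. Between MT and WT edgeR called 0 members (1.97% of all genes), with 8 at an unadjusted p under 0.05, and DESeq2 called 2, itgb5 and itgbl1. For itga10 the MT and WT responses differed by -1.91 ± 0.64, which did not pass (FDR = 0.15). itgb2 had differences of -0.19 ± 0.35 between MT and WT (FDR = 0.81) and 0.23 ± 0.35 between MT and TG (FDR = 0.82), so that a difference between genotypes in its response was not detectable with these pools.

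Ligands of integrins were higher after injury. Of 40 matrix and cell-surface ligand genes listed, 31 were tested, and 19 were called higher and 0 lower with injury over the genotypes, with a median log2 fold change of 1.17, beside 15.7% of all genes called higher and 9.18% lower. The fibronectin genes fn1a and fn1b, whose product binds alpha 5 and alpha v integrins, rose by 4.10 ± 0.14 (FDR = 3.24e-07) and 2.64 ± 0.15 (FDR = 4.26e-06). fn1a lay at 22.9 to 29.0 CPM in WT0 and TG0, at 83.6 and 135 CPM in MT0, and at 610 to 860 CPM in the injured libraries. MT0 was thus between the other uninjured groups and the injured ones in this gene. The laminin chain gene lama1 rose by 6.58 ± 0.37 (FDR = 8.23e-06), but it had no count in 3 of the 4 WT0 and TG0 libraries, so that this fitted value depends on the prior count. thbs4b, a thrombospondin, rose by 4.93 ± 0.22 (FDR = 1.05e-06).

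Ligand genes also differed between uninjured genotypes. In MT0, 13 of the 31 were called higher than in WT0 and 10 higher than in TG0, with 0 lower in each, beside 13.6% and 11.4% of all genes called higher. Their summed level was 1580 to 1601 CPM in WT0, 1988 to 2028 CPM in TG0 and 3049 to 4429 CPM in MT0, and 6296 to 7953 CPM after injury. A large part of this sum was fn1b. It measured 332 and 365 CPM in WT0, 576 and 607 CPM in TG0, 1327 and 2434 CPM in MT0, and 3815 to 5349 CPM after injury. Among the marker lists, those of epicardium or fibroblasts and of smooth muscle moved with the ligand genes in MT0. Of the remaining lists, 0 of 12 leukocyte, 0 of 6 thrombocyte and 1 of 6 red blood cell markers were called higher than in WT0. For endothelial and for cardiomyocyte markers it was 1 of 7 each. In MT0, 6 of 8 epicardial or fibroblast markers and 3 of 3 smooth muscle markers were higher than in WT0. The same numbers were higher than in TG0, with 0 lower. The summed epicardial or fibroblast markers spanned 821 to 1178 CPM in the MT0 libraries, against 293 to 359 in those of WT0 and 473 to 493 in those of TG0. Within the MT0 sums, the matrix genes col1a2 and postnb held 462 and 98.2 CPM in replicate 1 and 599 and 159 CPM in replicate 2. The summed smooth muscle markers spanned 646 to 1203 CPM in MT0, against 253 to 292 in WT0 and 190 to 373 in TG0. Their part in the ligand result was not tested. The difference in response, MT minus WT, was called negative in 7 of the 31 and positive in 0. For MT minus TG it was called negative in 3 and positive in 0. Of all genes, 1.51% and 1.06% were called negative in these 2 differences, whichever way the gene moved with injury. For fn1a the difference in response was -1.996 ± 0.32 against WT (FDR = 0.0181) and -2.01 ± 0.32 against TG (FDR = 0.02). At 7 dpa, 5 ligand genes were higher and 3 lower in MT7 than in WT7, beside 4.60% and 5.62% of all genes. Against TG7, 0 were higher and 2 lower in MT7, beside 0.742% and 2.04% of all genes.

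For the intracellular adaptors that couple integrins to actin, 33 of 40 listed genes were tested, and 7 were called higher and 3 lower with injury over the genotypes, beside 15.7% and 9.18% of all genes, and their median log2 fold change was -0.07. No statement on the list as a whole is drawn from these counts. The genes named next had the smallest p of the list for injury over the genotypes. On that average actn1, an actin cross-linker, rose by 0.78 ± 0.11 (FDR = 0.000545). Likewise lims1, a partner of integrin-linked kinase, rose by 0.59 ± 0.08 (FDR = 0.000621), and flna, a filamin, by 0.53 ± 0.07 (FDR = 0.000573). tns1a, a tensin that binds beta tails, fell by 0.75 (SE 0.10, FDR = 0.000486). By genotype, actn1, lims1 and flna were called higher in WT and TG. In MT they were not called, at -0.29 (FDR = 0.307), 0.22 (FDR = 0.341) and 0.14 (FDR = 0.483) in turn. The MT response of lims1 was not shown to differ from that of WT (-0.76 ± 0.20, FDR = 0.0874) or TG (-0.37 ± 0.20, FDR = 0.44). Nor was that of flna (-0.59 ± 0.18, FDR = 0.122 against WT, and -0.57 ± 0.18, FDR = 0.154 against TG). Both lims1 and flna were called higher in MT0 than in WT0 and in TG0. tns1a was called lower in WT and MT and not in TG (-0.35, FDR = 0.222). Its TG response was not shown to differ from that of WT (FDR = 0.145) or MT (FDR = 0.359). actn1 measured 60.3 and 47.4 CPM in WT0, 28.4 and 31.9 CPM in TG0, 135 and 188 CPM in MT0, 96.7 and 121 CPM in WT7, 95.2 and 88.9 CPM in TG7, and 128 and 135 CPM in MT7. MT0 was above all WT and TG libraries in this gene, and its response in MT differed from that in WT by -1.31 ± 0.26 (FDR = 0.0375) and from that in TG by -1.90 ± 0.26 (FDR = 0.0149). No ligand, adaptor or marker gene was followed in the fits that left out a library.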

How the data were processed

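The authors aligned single-end reads of 100 bases to GRCz10 with STAR (version 2.5.2), counted them with featureCounts (version 1.5.0-p3) and deposited raw counts per gene, 1 list for each library. Strand and multi-mapping settings are not given in the sources used here. The lists hold no gene lengths, so levels were not compared between genes. Counts were fitted with edgeR 4.0.16 (R 4.3.3; TMM scaling, filterByExpr by group with a minimum count of 10) as 6 group means over 12 libraries, with 13 contrasts that reuse libraries. The model leaves 6 residual degrees of freedom. Standard errors are the size of the log2 fold change over the square root of its F statistic. CPM were computed from counts and TMM-scaled library sizes. DESeq2 1.42.0, RLE scaling, no filter, a replicate block, fits of the compared libraries only, no fold threshold and leaving out each library were alternatives. They were followed for members only, so calls of ligand, adaptor and marker genes were not checked under them. Counting intervals are exact at 95% and cover counting error only. No 2 libraries were identical. The fit was tested on simulated counts.

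Members, lists and tests were chosen with earlier results of these data known. Values in every library are given for itgb2, itga6a and itgbl1, which the study names together, for members called in an interaction, for leukocyte members, for the 8 other members with the smallest p for injury, for members called with the same sign in MT0 against WT0 and TG0, and for the 2 with the smallest p in TG0 against WT0. All other members named were chosen after their values were seen. Sequences and coordinates were not used here.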

Additional observations from a re-analysis of the deposited data

Results flagged for a closer look

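The response of itga10 to injury differed between genotypes by a test of the difference itself. Between MT and TG the difference in log2 fold change was -4.83 (FDR = 0.0155, edgeR), and between TG and WT it was 2.92 (FDR = 0.0383). The call between MT and TG was lost without any of the 4 TG libraries, with FDR values up to 0.0858. The call between TG and WT was lost in 9 of the 12 fits that left out a library, with FDR values up to 0.178.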

How the results depend on the processing

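With 2 pools a group, most calls rested on single libraries. Of 51 calls of single members, 11 held under every alternative and with each library left out: itga6b, itga2b, itga6a, itgav, itgbl1 and itgb2 for injury over the genotypes, itgbl1 in WT7 against WT0, itgb7 in MT0 against WT0 and against TG0, and itga10 in MT7 against WT7 and against TG7. Leaving out each library gave 6 to 9 members called over the genotypes, 2 to 6 in WT7 against WT0, 0 to 7 in TG7 against TG0, 0 to 6 in MT7 against MT0, 2 to 9 in MT0 against WT0, 2 to 9 in MT0 against TG0, 1 to 11 in TG0 against WT0, 1 to 3 in MT7 against WT7, 1 to 2 in MT7 against TG7 and 0 in TG7 against WT7. For the interactions it gave 0 to 1 between MT and WT, 0 to 2 between MT and TG and 0 to 6 between TG and WT. Fits of the compared libraries only, with fewer samples, called 10 members in TG7 against TG0 in place of 5, 0 in MT7 against MT0 in place of 5, 2 in MT0 against WT0 in place of 9 and 1 in TG0 against WT0 in place of 6. DESeq2 called 3 in MT7 against TG7 (itga10, itga7 and itgb7) in place of 1, 2 between the MT and WT responses in place of 0, and 3 between the TG and WT responses (itga10, itgb1a and itgb5) in place of 1; the cause was not tested. The sign of the difference in response changed for itgb2 between MT and WT (from -0.61 without MT0 replicate 1 to 0.34 without MT0 replicate 2), for itgb2 between MT and TG (from -0.17 without MT0 replicate 1 to 0.77 without MT0 replicate 2) and for itgbl1 between MT and TG (from -2.53 without MT0 replicate 1 to 1.39 without MT0 replicate 2), none of them called. Replicate numbers did not pair the samples, with correlations of -0.12 to 0.12 over 15 pairs of groups. With the replicate block 6 of the single calls were lost, and between the TG and WT responses 0 members were called in place of 1. A fit that leaves 1 library in a group assumes that it varies like the others. For members near or under 1 CPM, depth limits the calls: itga4, itga8 and itgb6 were not called in edgeR with all libraries, but itga8 and itgb6 were called over the genotypes without TG0 replicate 2, and itga4 in TG0 against WT0 by DESeq2 and without WT0 replicate 2.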
